A study of Arabidopsis thaliana with 9 samples.

Results

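The later response to PLT2 was read from quiescent centre (QC) cells sorted 4 h after the induction of PLT2-GR, set against mock-treated QC cells. The members were taken from the sample titles: 3 arrays labelled as 4 h induction and 3 labelled as control, which are 6 of the 9 arrays of the series, with all 21430 loci on them. All plants were Arabidopsis thaliana of the plt1 plt2 double mutant genotype. They carried PLT2::PLT2-GR, which complements the mutant, and WOX5::erGFP, the reporter used to sort the cells. The 4 h group was seedlings moved, 5 days after germination, to agar with 10 µM dexamethasone in DMSO for 4 h. A 1 h group had the same treatment for 1 h, and its 3 arrays entered the model, where they add to the estimate of the spread, and are compared with the 4 h arrays in the closing section. The mock group was moved to agar with DMSO alone for 1 h. Root tips of all groups were digested to protoplasts and the GFP-positive cells were sorted, so every array carries the effects of that handling. The arrays are called biological replicates in the labels. None of these samples is a mock kept for 4 h or a dexamethasone-treated plant without the construct, so the effects of PLT2 release, of dexamethasone itself and of 4 h on a new plate cannot be told apart here.

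PLT proteins are AP2-type transcription factors that are most abundant around the stem cell niche of the root, where they maintain stem cells and division, while lower amounts accompany elongation and differentiation. Fused to the glucocorticoid receptor domain, PLT2 stays in the cytoplasm until dexamethasone lets it enter the nucleus. The QC is the small group of slowly dividing cells at the centre of the niche, and it lies at a maximum of auxin. Auxin is made from tryptophan, and in Brassicaceae tryptophan also feeds indole-3-acetaldoxime, the precursor of indole glucosinolates.

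Of 11 measured markers of the QC and niche, 1 rose (9.09%, beside 5.53% of all loci) and 0 fell. The one called was BRAVO, a MYB gene that restrains QC division, at 0.70, and it was called in 1 of the 9 fits that each left out an array. The niche factors PLT3, BBM and JKD stood at -0.20, 0.46 and 0.02 and were not called. WOX5, whose promoter drove the sorting reporter, was not among the loci analysed here. AGL42, a MADS-box gene known for its QC expression, had log2 levels of 2.99, 2.83 and 2.83 at 4 h and 2.78, 2.83 and 3.04 in mock, below the first quartile of every array (3.55 to 3.63). SCR, a GRAS transcription factor needed for QC identity, lay at 8.83, 8.66 and 8.66 at 4 h, against 8.66, 8.50 and 8.50 in mock. The sorted cells thus carried SCR RNA on every array and no AGL42 signal above that of the dimmest loci. PLT2 itself (AT1G51190) was at 8.27, 8.93 and 8.48 at 4 h and at 8.66, 8.53 and 8.55 in mock. It was not called (log2 fold change -0.02 ± 0.16, SE, n = 3 arrays a group, limma adjusted p = 0.955). Which part of PLT2 was probed is unknown here, so RNA of the construct and of the mutated gene cannot be told apart.

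Markers of neighbouring root cell types were present too, and some of them were lower at 4 h. The summed log2 level of 7 endodermis and cortex markers was 34.8 to 36.2 at 4 h and 36.8 to 38.8 in mock. That of 8 vascular markers was 38.9 to 39.9 at 4 h and 40.3 to 40.7 in mock. The groups did not overlap in either sum, as was so for 27.7% of all loci taken singly. The sums overlapped for 7 root cap markers (44.3 to 47.0 at 4 h, 46.3 to 47.1 in mock) and for 6 epidermis markers (34.0 to 36.8 at 4 h, 35.9 to 36.8 in mock). Among these genes, FEZ and PHB rose, and RHD6, ESB1, XCP1, TMO5 and ACL5 fell, each losing its call without at least 1 of the 9 arrays. The rises were 14.3% of root cap and 12.5% of vascular markers, 1 gene each, beside 5.53% of all loci. The falls were 16.7% of epidermis and 14.3% of endodermis and cortex markers, 1 gene each, and 37.5% of vascular markers, 3 genes, beside 5.23% of all loci. The xylem regulator VND7, at a mean of 2.91 in mock, was below the first quartile of the arrays. In a bulk sample, fewer cells of a type and less RNA per cell cannot be told apart.

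The 4 h arrays varied more among themselves than the mock arrays. Over all loci, the median SD was 0.145 at 4 h and 0.100 in mock, and it was 0.100 at 1 h. Pairs of arrays correlated at 0.990 to 0.994 at 4 h and at 0.996 to 0.997 in mock. Replicate 1 at 4 h stood apart in the 12 probe sets for poly-A control RNAs, with a mean of 8.76, against 6.34 on both other 4 h arrays and 6.17 to 6.40 on the mock arrays. Its 5S rRNA signal was 5.63, against 4.59 to 4.61 on the other 4 h arrays and 4.76 to 5.04 in mock. Counts of calls over all loci and for most gene lists below are therefore also given without this array. The part of these signals in the results was not tested.

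A locus was called at a Benjamini-Hochberg adjusted p under 0.05 in limma, over 21430 loci. At 4 h, 1185 loci rose, or 5.53% of those tested, and 1120 fell, or 5.23%, together 10.8%. Most changes were small: the median log2 fold change was 0.51 among the rises and -0.54 among the falls, and 81 rises and 90 falls reached 1 log2 unit, a change of 2-fold. The median over all loci was 0.01. Few calls came from dim loci. Among the 5358 loci with the lowest mean level over the 9 arrays 7 rose and 11 fell, while among the 5358 with the highest level 502 rose and 492 fell.

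The number of calls changed with the arrays in the fit. Without 4 h replicates 1, 2 and 3 in turn, 1209, 1189 and 4153 loci were called, and without mock replicates 1, 2 and 3 the counts were 1223, 688 and 896. Without 1 h replicates 1, 2 and 3, which add only to the estimate of the spread, they were 2003, 1738 and 1857. A fit with fewer arrays is also less able to call a change, and the part of this in the counts was not tested. Of the 2305 loci called with all arrays, 583 were called whichever array was left out, 367 of them higher and 216 lower at 4 h. Leaving out 4 h replicate 1 kept 1110 of the 2305 calls and changed the share of loci called to 5.64% (3.24% higher, 2.4% lower).

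**Figure D1:**
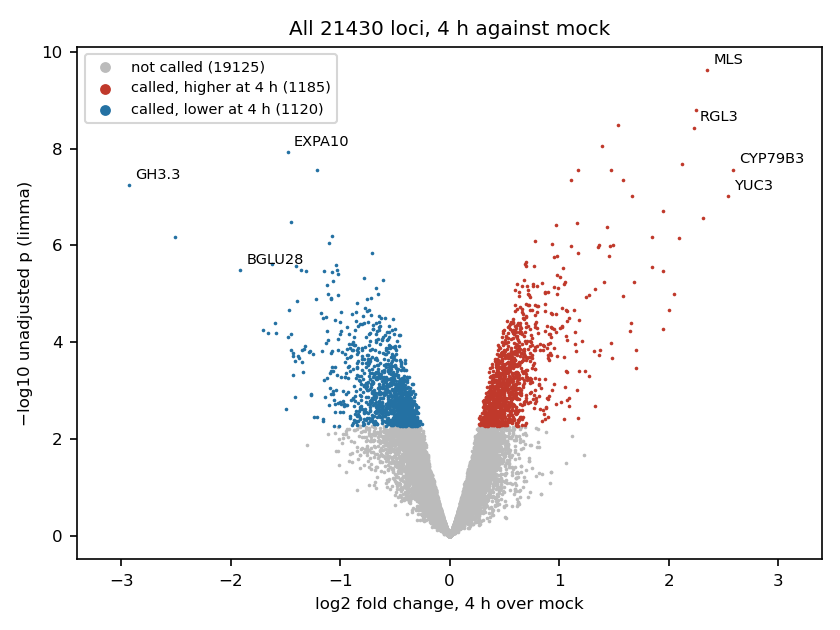
Log2 fold change of each of the 21430 loci, 4 h over mock (x axis), against −log10 of the unadjusted limma p (y axis), 1 point per locus. The 1185 loci called higher and the 1120 called lower at 4 h are coloured, and most of them lie within 1 log2 unit of no change.

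The 15 largest rises, taken among called loci whose 4 h and mock arrays did not overlap (27.7% of all loci did not), had log2 fold changes of 1.85 to 2.59. CYP79B3 (AT2G22330), a cytochrome P450 that turns tryptophan into indole-3-acetaldoxime, had log2 levels of 8.45, 7.65 and 7.89 at 4 h, against 5.49, 5.57 and 5.18 in mock. Every 4 h array lay at least 2 log2 units above every mock array, and the fitted change was 2.59 ± 0.18 (limma adjusted p = 5.37e-05), a 6.01-fold rise. YUC3 (AT1G04610), a flavin monooxygenase of auxin synthesis, was at 10.84, 10.30 and 10.02 at 4 h, against 7.83, 8.08 and 7.61 in mock (2.54 ± 0.20). MLS (AT5G03860), malate synthase of the glyoxylate cycle, was at 8.47, 8.16 and 8.29 at 4 h, against 5.94, 5.86 and 6.07 in mock. The spread within each group of MLS was small beside the difference of 2.35 ± 0.10, and it had the smallest p of all loci (adjusted p = 5.13e-06).

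The other large rises were of varied kinds. ADF9 (AT4G34970), an actin depolymerizing factor family member that bundles actin filaments, had levels of 9.97, 8.84 and 9.43 at 4 h, against 6.95, 7.50 and 7.65 in mock (2.05 ± 0.26). XTH9 (AT4G03210), which cuts and rejoins xyloglucan in cell walls, was at 9.22, 8.37 and 8.24 at 4 h, against 6.89, 6.65 and 6.43 in mock (1.95 ± 0.22). CB5-C (AT2G46650), a cytochrome b5 isoform, was at 7.80, 6.65 and 6.58 at 4 h, against 5.09, 5.25 and 4.68 in mock (2.00 ± 0.28). In CB5-C and XTH9 replicate 1 stood well above the other 4 h arrays, and all 4 h values still exceeded all mock values. AT4G28410, given as RSA1 in the gene table, rose by 2.25 ± 0.12. AT3G48460 and AT3G15720, for which the table gives no name, rose by 1.95 ± 0.30 and 1.85 ± 0.20. In all 15 of these genes, 4 h replicate 1 was the highest of the 3 arrays. All 15 passed without any single one of the 9 arrays.

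**Figure D2:**
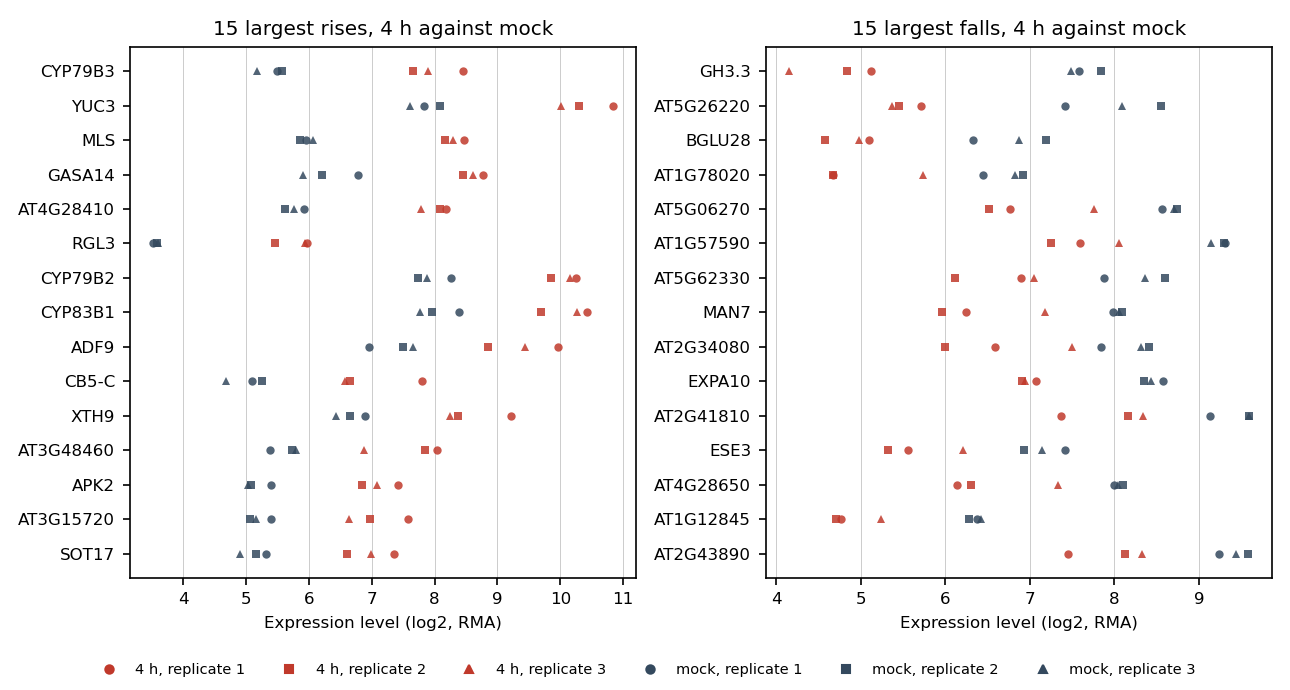
Log2 expression (x axis) of the 15 largest rises (left) and 15 largest falls (right) at 4 h against mock, 1 row per gene and 1 point per array, red for 4 h and dark blue for mock. The groups do not overlap in any row because the genes were chosen so, and replicate 1 is the rightmost 4 h point in every row of the left panel.

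Genes of indole glucosinolate synthesis rose at successive steps of the pathway. Of 20 measured genes of the indole glucosinolate and aldoxime list, 9 rose, 2 fell and 9 did not pass, so that 45.0% were called higher, beside 5.53% of all loci. The list median was 0.37, beside 0.01 over all loci. CYP79B2 (AT4G39950), the partner of CYP79B3 in making the aldoxime, was at 10.25, 9.85 and 10.16 at 4 h, against 8.27, 7.74 and 7.89 in mock. CYP83B1 (AT4G31500), which oxidises the aldoxime and so commits it to glucosinolates, was at 10.43, 9.69 and 10.26 at 4 h, against 8.38, 7.95 and 7.76 in mock. The gap between the groups exceeded the whole range of either group in both genes (log2 fold change 2.12 ± 0.14 and 2.09 ± 0.20).

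Later in the core pathway GSTF9, SUR1, UGT74B1 and SOT16 rose, and GGP1, which acts between the conjugation and the C-S lyase steps, stood at 0.39 and was not called (adjusted p = 0.288). GSTF9 (AT2G30860), a glutathione transferase placed at the conjugation step, was at 13.40, 12.98 and 12.98 at 4 h, against 12.14, 12.16 and 12.04 in mock, a rise of 1.01 ± 0.12. SUR1 (AT2G20610), the C-S lyase, rose by 1.14 ± 0.16, with 9.16, 8.43 and 8.84 at 4 h, against 7.78, 7.57 and 7.67 in mock. UGT74B1 (AT1G24100), the glucosyltransferase, rose by 1.06 ± 0.13, and SOT16 (AT1G74100), the sulfotransferase of the last core step, by 1.41 ± 0.17. For SOT16 the arrays stood at 9.06, 8.82 and 9.22 at 4 h, against 8.01, 7.30 and 7.57 in mock. Side-chain oxidation genes followed: CYP81F1 (CYP91A2 in the gene table, AT4G37430) rose by 1.44 ± 0.13 and CYP81F4 (AT4G37410) by 1.03 ± 0.14. All 9 rises in this list passed without any single array, 4 h replicate 1 included.

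Members of the same list that act elsewhere moved otherwise. BGLU28 (AT2G44460), a beta-glucosidase linked to glucosinolate breakdown under sulfur shortage, fell by 1.91 on the log2 scale, with 5.10, 4.57 and 4.98 at 4 h, against 6.33, 7.19 and 6.87 in mock. NIT3 (AT3G44320), a nitrilase, had a log2 fold change of -0.49 ± 0.11 and was called. The myrosinase PEN2 stood at -0.30 and the camalexin gene PAD3 at -0.04, and neither was called. GSTF10, close in sequence to GSTF9, stood at -0.07 and was not called. Without mock replicate 1 or mock replicate 2, 1 of the 2 falls was called, and without 4 h replicate 3 the count was 3.

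Tryptophan synthesis, which supplies this pathway, was higher at several of its own steps. Of 12 measured genes 5 rose, or 41.7% beside 5.53% of all loci, 0 fell and 7 did not pass. The median was 0.37, beside 0.01 over all loci. ASA1 (AT5G05730), the feedback-regulated alpha subunit of anthranilate synthase, was at 9.66, 9.70 and 9.36 at 4 h, against 8.84, 8.90 and 8.79 in mock (0.73 ± 0.13). TRP1 (AT5G17990), the anthranilate phosphoribosyltransferase, was at 9.01, 8.93 and 9.02 at 4 h, against 8.33, 8.22 and 8.33 in mock (0.69 ± 0.07). TSA1 (AT3G54640), tryptophan synthase alpha, was at 10.15, 9.63 and 9.65 at 4 h, against 9.21, 9.11 and 9.14 in mock (0.66 ± 0.13). The groups were apart in each of these genes, as in nearly all called loci, by less than for CYP79B2 in log2 terms.

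Upstream in the shikimate pathway, the shikimate kinase gene SK2 rose by 0.59 ± 0.13 and DHS1, the entry enzyme, by 0.38 ± 0.09, while SK1 stood at 0.07, DHS2 at 0.35 and the chorismate synthase gene EMB1144 at 0.05 without a call. CM1, chorismate mutase of the branch to phenylalanine and tyrosine, stood at -0.18. MYB34, a regulator of indole glucosinolate and tryptophan genes, was at 7.30, 6.10 and 6.40 at 4 h, against 5.80, 5.88 and 5.70 in mock. Its difference of 0.81 ± 0.26 did not pass (adjusted p = 0.0762), with replicate 1 far above the other 4 h arrays. MYB51 and MYB122, which share this role, stood at -0.05 and 0.02. With 4 h replicate 1 left out, 4 of the 12 genes were called, without mock replicate 2 the number was 2 (TSA1, SK2 and DHS1 lost the call) and without mock replicate 3 it was 3 (SK2 and DHS1 lost it). ASB1, PAI1, PAI2, TSB1 and TSB2 were not analysed here.

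**Figure D3:**
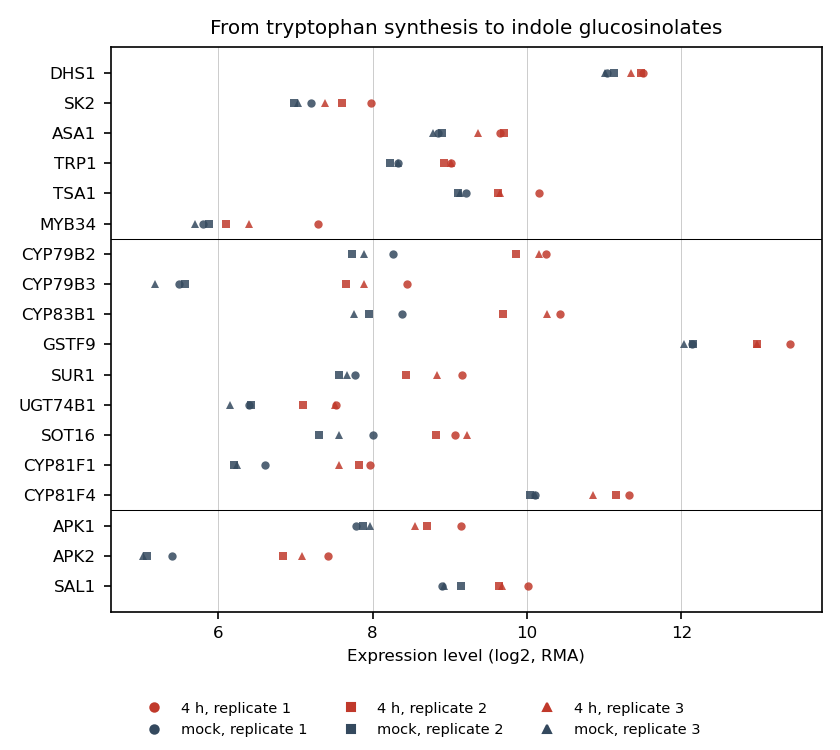
Log2 expression (x axis) of genes of tryptophan synthesis and its regulator MYB34 (top), indole glucosinolate synthesis (middle) and sulfate activation (bottom), 1 point per array, red for 4 h and dark blue for mock. The 3 points at 4 h lie right of the 3 mock points in every row, with the widest gaps for CYP79B3, CYP79B2 and APK2, and MYB34 is the one gene shown that was not called.

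Sulfotransferases of glucosinolate synthesis use activated sulfate, PAPS, as the sulfate donor, and 3 genes of its supply and clearance rose. The adenosine-phosphosulfate kinase gene APK2 (AKN2 in the gene table, AT4G39940) was at 7.42, 6.84 and 7.08 at 4 h, against 5.40, 5.07 and 5.03 in mock, a rise of 1.95 ± 0.16 (limma adjusted p = 0.000247). APK1 (AT2G14750) was at 9.14, 8.71 and 8.55 at 4 h, against 7.79, 7.88 and 7.96 in mock (0.92 ± 0.14). SAL1 (AT5G63980), which degrades the by-product PAP, was at 10.02, 9.64 and 9.68 at 4 h, against 8.90, 9.14 and 8.92 in mock (0.79 ± 0.12). The arrays of the groups were apart in all of them, as in nearly all called loci, and each passed without any single array. The other kinases APK3 and APK4 stood at 0.34 and 0.32 without a call.

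Sulfate uptake and reduction did not move with the kinases. SULTR1;2 (AT1G78000), a high-affinity sulfate importer of the root, fell to 9.27, 9.75 and 9.34 at 4 h, against 10.03, 10.93 and 10.55 in mock (-1.05 ± 0.20). SULTR4;2, a vacuolar sulfate exporter, fell by 0.78 on the log2 scale, a call that was lost without 5 of the 9 arrays taken singly (mock replicates 2 and 3, 4 h replicates 2 and 3 and 1 h replicate 2, adjusted p up to 0.128). The reductases APR1, APR2 and APR3 stood at 0.21, -0.07 and 0.08, sulfite reductase SIR at -0.06 and the glutathione synthesis gene GSH1 at 0.03, none called. Of the 32 genes measured for sulfate uptake and assimilation, 3 rose, 2 fell and 27 did not pass, with a median of 0.01. The rises were 9.38% of the list and the falls 6.25%, beside 5.53% of all loci higher and 5.23% lower. The numbers were 5 higher and 3 lower without 4 h replicate 3, and without mock replicate 2, mock replicate 3, 4 h replicate 2 or 1 h replicate 2, 1 was called lower. Leaving out mock replicate 1 gave 3 falls, and leaving out 4 h replicate 1 gave 3 rises and 2 falls. AT5G26220, given as GGCT2;1, a gamma-glutamyl cyclotransferase that breaks down glutathione, was at 5.72, 5.45 and 5.37 at 4 h, against 7.41, 8.54 and 8.09 in mock, the second largest fall of all. The sulfur-shortage markers SDI1 and LSU1 were at low levels and stood at -0.22 and -0.23 without a call.

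Aliphatic glucosinolates are made from chain-elongated methionine. Of 16 measured genes of this list 2 rose, or 12.5% beside 5.53% of all loci, 0 fell and 14 did not pass. SOT17 (AT1G18590), a sulfotransferase that acts mainly on aliphatic substrates, was at 7.35, 6.60 and 6.99 at 4 h, against 5.32, 5.16 and 4.91 in mock, a rise of 1.85 ± 0.18. BCAT3, a branched-chain aminotransferase that also serves amino acid synthesis, rose by 0.48 ± 0.08. The regulators MYB28, MYB29 and MYB76 had mock means of 3.17, 2.94 and 3.67 and stood at 0.09, 0.18 and -0.25, and the elongation gene MAM1 at 0.20. Of the 16 genes, 2 had a mock mean of 6 or more, so most of this list was dim in mock. One more gene, or 3 in all, was called higher without 4 h replicate 1.

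Both enzymes particular to the glyoxylate cycle rose. Beside MLS, the isocitrate lyase gene ICL (AT3G21720) was at 7.25, 7.77 and 7.81 at 4 h, against 6.36, 6.39 and 6.88 in mock (1.06 ± 0.17, limma adjusted p = 0.00621). In ICL replicate 1 was the lowest of the 4 h arrays, unlike in the 15 largest rises. No other of the 20 measured genes of the glyoxylate cycle and peroxisomal beta-oxidation was called, and the median was 0.01. Values were 0.05 for the acyl-CoA oxidase gene ACX1, 0.02 for the thiolase gene PED1, -0.11 for MFP2, -0.27 for the malate dehydrogenase gene PMDH1 and 0.29 for the gluconeogenic PCK1. The 2 rises, 10.0% of the list beside 5.53% of all loci, passed without any single array.

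Among gibberellin genes, 2 oxidases of earlier synthesis steps and 3 DELLA repressors rose, and 2 oxidases of the last step fell. GA3 (AT5G25900), ent-kaurene oxidase, was at 9.29, 9.05 and 9.01 at 4 h, against 7.91, 7.32 and 7.66 in mock (1.49 ± 0.15). KAO2 (AT2G32440), ent-kaurenoic acid oxidase, was at 7.51, 6.70 and 6.66 at 4 h, against 5.89, 5.99 and 5.84 in mock (1.05 ± 0.19). GA3OX1 and GA3OX2, the 3-oxidases that make active gibberellins, fell by 0.77 and 0.62 on the log2 scale. GA3OX1 was at 4.66, 4.50 and 4.46 at 4 h, against 5.70, 4.88 and 5.34 in mock. The 4 h and mock arrays did not overlap in any of these 4 genes. The same held for 2298 of the 2305 called loci and 27.7% of all loci, so it adds little to the calls. The other early enzymes GA1, GA2 and KAO1 stood at 0.06, 0.16 and 0.05 and were not called.

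Among DELLA genes, which encode repressors of gibberellin response, RGL3 (AT5G17490) was at 5.97, 5.46 and 5.94 at 4 h, against 3.51, 3.58 and 3.59 in mock (2.23 ± 0.13). Its mock values lay at the first quartile of the arrays, so the size of this rise is uncertain. RGL1 rose by 0.78 ± 0.15 and RGL2 by 0.43 ± 0.11, while GAI and RGA stood at -0.05 and -0.28 and were not called. The receptors GID1A, GID1B and GID1C stood between -0.15 and 0.05. Over the 27 gibberellin genes the median was 0.05, with 5 rises (18.5%, beside 5.53% of all loci), 2 falls (7.41%, near the 5.23% of all loci) and 20 genes that did not pass. Without 4 h replicate 1, 4 rose and 3 fell, and the falls numbered 1 without mock replicate 1, mock replicate 2, mock replicate 3 or 4 h replicate 2 and 4 without 4 h replicate 3. The calls of GA3OX2, GA3OX1 and RGL2 were lost without at least 1 array, and those of RGL3, GA3, KAO2 and RGL1 were not.

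GASA genes encode small cysteine-rich secreted peptides, several of them known to respond to gibberellin. GASA14 (AT5G14920) was at 8.78, 8.44 and 8.61 at 4 h, against 6.78, 6.21 and 5.91 in mock (2.31 ± 0.20), and GASA4 (AT5G15230) was at 12.48, 12.45 and 12.64 at 4 h, against 12.91, 13.11 and 13.12 in mock (-0.53 ± 0.09). The other 5 measured GASA genes, between -0.39 and 0.05, were not called, and these counts did not change without any single array. One gene each way was 14.3% of the list, beside 5.53% of all loci higher and 5.23% lower.

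Brassinosteroid genes were called in both directions, together 26.1% of the list beside 10.8% of all loci. DWF4 (AT3G50660), the 22-hydroxylase known as the slow step of synthesis, was at 5.87, 5.72 and 5.86 at 4 h, against 6.69, 6.36 and 6.80 in mock (-0.80 ± 0.12). BR6OX2, the last enzyme, had a log2 fold change of -0.63 ± 0.14, and the inactivating enzyme CYP72C1 (SOB7) of -0.53 ± 0.12. The C-23 hydroxylases CYP90D1 and ROT3 rose by 0.60 ± 0.10 and 0.58 ± 0.12, and the reductase gene DET2 by 0.33 ± 0.09. The receptor BRI1 stood at -0.22 and the kinase BIN2 at -0.20, not called. The list of 23 measured genes held 3 rises and 3 falls, 13.0% each way beside 5.53% of all loci higher and 5.23% lower, 17 genes did not pass, and the median was -0.08. The calls of DWF4 and CYP90D1 passed without any single array, and those of ROT3, BR6OX2, CYP72C1 and DET2 did not, with DET2 losing its call whichever array was left out. Without mock replicate 2, 1 gene was called in each direction, and without 4 h replicate 1 the count was 2 in each.

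The ethylene, jasmonate and abscisic acid lists held few calls. Of 24 ethylene genes 2 fell and 0 rose, the receptor gene ERS1 with a mean of 8.17 ± 0.24 at 4 h, against 8.97 ± 0.09 in mock (SD, n = 3 each), and the transcription factor gene EIL1 with 8.81, 8.83 and 8.88 at 4 h, against 9.30, 9.34 and 9.46 in mock. ERS1 and EIL1 were called without any single array, and without 4 h replicate 3 the falls numbered 6. Of 24 jasmonate genes 2 fell and 0 rose: AOC4, an allene oxide cyclase, at -0.61 ± 0.10, and the receptor gene COI1 at -0.57 ± 0.15, whose call was lost without any one of 6 arrays (4 h replicate 1, mock replicates 2 and 3 and all 1 h arrays, adjusted p up to 0.142). Of 34 abscisic acid genes 1 rose (the receptor PYL2, 0.52 ± 0.15) and 2 fell (PYL1, -0.50 ± 0.14, and NCED5, -0.41 ± 0.10), and each of these lost its call without at least 4 of the arrays taken singly. These shares, 8.33%, 8.33% and 5.88% lower, stood near the 5.23% of all loci. With 4 h replicate 3 left out, 3 abscisic acid genes were called higher and 6 lower. With 4 h replicate 1 left out, 1 abscisic acid gene was called higher and 0 lower, and 1 jasmonate gene was called lower.

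RNA polymerases I and III transcribe ribosomal and transfer RNA genes, and a list of 8 of their subunits was higher at 4 h. The list was chosen with earlier results of these data known, and subunits outside it were not examined. All 8 measured rose, beside 5.53% of all loci, with log2 fold changes of 0.37 to 0.72 and a median of 0.55. NRPA2 (AT1G29940), the second largest subunit of polymerase I, was at 9.49, 9.37 and 9.24 at 4 h, against 8.82, 8.64 and 8.67 in mock (0.66 ± 0.09, limma adjusted p = 0.00375). NRPA1 (AT3G57660), its largest subunit, was at 8.37, 8.09 and 8.03 at 4 h, against 7.44, 7.44 and 7.69 in mock. RPAC42 (AT1G60850), shared by both polymerases, was at 9.39, 9.26 and 9.21 at 4 h, against 8.77, 8.35 and 8.57 in mock. Replicate 1 was the highest 4 h array in each of these genes, and the 2 other 4 h arrays also exceeded all mock arrays.

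The other subunits rose by 0.58 ± 0.09 (RPAC43), 0.51 ± 0.11 (NRPB5, a subunit of several polymerases), 0.51 ± 0.13 (NRPC2), 0.50 ± 0.13 (RPAC14) and 0.37 ± 0.10 (NRPC1, the largest subunit of polymerase III). NRPA1, NRPA2, RPAC42 and RPAC43 passed without any single array. Without 4 h replicate 1 or mock replicate 2, 4 of the 8 were called, and without mock replicate 1, mock replicate 3 or 4 h replicate 2 the count was 5.

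Part of the genes of mitosis and cytokinesis rose. Of 30 measured, 11 rose, or 36.7% beside 5.53% of all loci, 0 fell and 19 did not pass, with a median of 0.35 and no value above 0.64. KNOLLE (SYP111, AT1G08560), the syntaxin of the cell plate, was at 10.13, 9.83 and 9.86 at 4 h, against 9.34, 9.42 and 9.34 in mock. PAKRP1 (AT4G14150), a kinesin of the phragmoplast, was at 6.59, 6.52 and 6.64 at 4 h, against 6.09, 6.12 and 5.90 in mock. CYCB1;1 (AT4G37490), a mitotic cyclin, was at 8.59, 8.33 and 8.18 at 4 h, against 7.88, 7.75 and 7.58 in mock. The groups were apart in all of these, as in nearly all called loci, by less than the differences among the largest rises.

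CYCA1;1 rose by 0.54 ± 0.10, and the Aurora kinase genes AUR1 and AUR3 by 0.55 ± 0.12 and 0.60 ± 0.13. The other rises were TES, MAP65-3, TPX2, MYB3R4 and BUB3.1, at 0.31 to 0.52. BUBR1 at 0.61 and the kinesin gene HIK at 0.41 were not called, and neither were CENH3 at 0.23 and CYCA2;3 at -0.17. The counts changed when single arrays were left out: 4 were called without 4 h replicate 1 (PAKRP1, KNOLLE, CYCB1;1 and CYCA1;1 kept the call) or without mock replicate 2. They were 5 without 4 h replicate 2 or mock replicate 3, 7 without mock replicate 1 and 20 without 4 h replicate 3. Omission of 4 h replicate 3 also gave the highest number of calls over all loci.

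**Figure D4:**
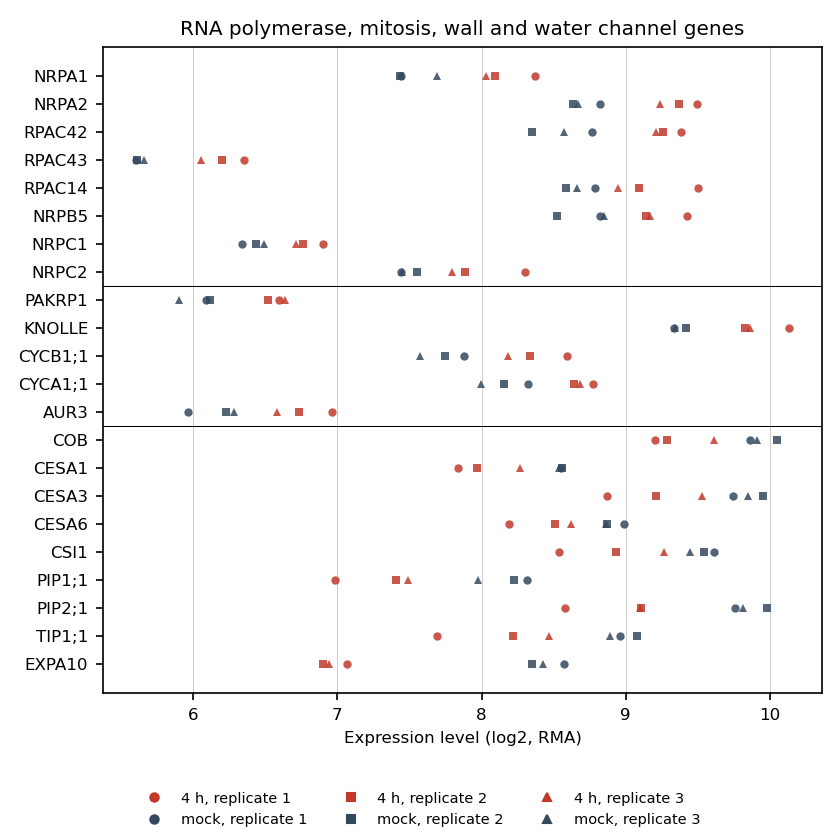
Log2 expression (x axis) of RNA polymerase I and III subunits (top), genes of mitosis and cytokinesis (middle) and genes of cellulose synthesis, water channels and EXPA10 (bottom), 1 point per array, red for 4 h and dark blue for mock. In the upper blocks the 4 h points lie to the right and in the lower block to the left of the mock points, by less than 1 log2 unit in most rows.

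Part of the genes of wall synthesis and water transport, which serve cell expansion, fell at 4 h. Of 18 genes for cellulose synthases and their partners, 7 fell (38.9%, beside 5.23% of all loci), 0 rose and 11 did not pass, with a median of -0.33. The subunits of the primary wall complex CESA1, CESA3 and CESA6 had log2 fold changes of -0.52 ± 0.11, -0.64 ± 0.14 and -0.47 ± 0.12. CESA3 (CEV1 in the gene table, AT5G05170) was at 8.87, 9.21 and 9.53 at 4 h, against 9.74, 9.95 and 9.84 in mock. COB, a protein of oriented expansion, was at 9.20, 9.28 and 9.61 at 4 h, against 9.86, 10.05 and 9.91 in mock. In these genes replicate 3 was the 4 h array nearest to mock and replicate 1 the farthest.

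CSI1, which links the complex to microtubules, CSLD3 and CESA2 fell as well, by 0.62, 0.44 and 0.34 on the log2 scale. Subunits of the secondary wall complex, CESA4, CESA7 and CESA8, stood at -0.20, -0.27 and -0.20 and were not called, and CSLD5 stood at 0.33. No call in this list held without mock replicate 2, mock replicate 3 or 4 h replicate 2 (0 called in each case), 3 held without 4 h replicate 1 or mock replicate 1, and 11 genes were called without 4 h replicate 3. The falls accompanied the lower sums of endodermis and vascular markers given above, whose part in them was not tested.

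Among aquaporins, the water channels, 4 of 18 fell, or 22.2% beside 5.23% of all loci, 0 rose and 14 did not pass, with a median of -0.33. PIP1;1 (AT3G61430) was at 6.99, 7.41 and 7.49 at 4 h, against 8.32, 8.22 and 7.97 in mock (-0.88 ± 0.14). PIP2;1 (AT3G53420) was at 8.58, 9.10 and 9.10 at 4 h, against 9.76, 9.98 and 9.81 in mock (-0.93 ± 0.18). TIP1;1 (AT2G36830), the vacuolar channel typical of expanding cells, was at 7.69, 8.22 and 8.47 at 4 h, against 8.96, 9.08 and 8.89 in mock (-0.85 ± 0.17). The groups did not overlap in any of these, as in 2298 of the 2305 called loci and 27.7% of all loci. PIP1;2 fell by 0.34, and TIP4;1 at -0.91 and TIP1;2 at -0.66 did not pass. Of these calls PIP1;1 passed without any single array, 1 aquaporin was called without mock replicate 2, 3 without 4 h replicate 1 and 8 without 4 h replicate 3.

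Wall-modifying XTH genes did not move as a group. XTH9 and XTH28 rose, XTH30 fell and 30 of 33 did not pass, with a median of -0.11. Thus 6.06% were called higher and 3.03% lower, beside 5.53% and 5.23% of all loci. XTH28 (AT1G14720) was at 7.92, 7.35 and 7.26 at 4 h, against 6.46, 6.43 and 6.56 in mock (1.03 ± 0.15). XTH30 had a log2 fold change of -0.85 ± 0.24, and its call was lost without any single array other than 4 h replicate 3 (adjusted p up to 0.162). XTH8 and XTH19 stood at -0.61 and -0.52 without a call. Without 4 h replicate 1, 2 XTH genes were called higher and 0 lower. In the actin list, ADF9, the bundling protein gene FIM1 (0.66 ± 0.14) and ADF6 (0.64 ± 0.16) rose. The villin genes VLN1, VLN2 and VLN4, whose products bundle filaments, had log2 fold changes of -0.46, -0.47 and -0.37, and 19 of 25 genes did not pass. Rises and falls were each 12% of the actin list, beside 5.53% of all loci higher and 5.23% lower. The actin genes themselves, ACT2, ACT7, ACT8 and ACT11, stood between -0.45 and -0.11 and were not called. Leaving out 4 h replicate 1, 2 actin genes were called higher and 2 lower. Without mock replicate 2 these numbers were 1 and 0, without mock replicate 3 they were 1 and 1, without mock replicate 1 they were 2 and 1, and without 4 h replicate 2 they were 2 and 0. The falls numbered 7 without 4 h replicate 3.

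The 15 largest falls had log2 fold changes of -1.45 to -2.93, and in 11 of them 4 h replicate 3 was the array nearest to mock. The largest was that of GH3.3 (AT2G23170), an enzyme that joins auxin to amino acids, with 5.12, 4.84 and 4.15 at 4 h, against 7.58, 7.84 and 7.49 in mock (-2.93 ± 0.22, limma adjusted p = 8.81e-05). EXPA10 (AT1G26770), a wall-loosening expansin, was at 7.07, 6.90 and 6.94 at 4 h, against 8.57, 8.35 and 8.43 in mock, a change of -1.48 ± 0.09 with the smallest p among the falls (adjusted p = 4.21e-05). MAN7 (AT5G66460), a mannan-cleaving enzyme, was at 6.24, 5.96 and 7.18 at 4 h, against 7.98, 8.09 and 8.06 in mock. ESE3 (AT5G25190), an ERF-type transcription factor, was at 5.56, 5.32 and 6.21 at 4 h, against 7.42, 6.93 and 7.15 in mock. In MAN7 replicate 3 stood well above the other 4 h arrays and still below every mock array.

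The receptor kinase gene AT4G28650 (PXL2 in the gene table) fell to 6.13, 6.31 and 7.34 at 4 h, against 7.99, 8.10 and 8.05 in mock. The remaining large falls carry no name in the gene table: AT1G78020, AT5G06270, AT1G57590, AT5G62330, AT2G34080, AT2G41810, AT1G12845 and AT2G43890, at -1.45 to -1.70. AT1G12845 had the tightest values among them, with 4.77, 4.71 and 5.24 at 4 h, against 6.37, 6.28 and 6.42 in mock. All of the 15 but AT2G34080 passed without any single array; its call was lost without any mock array or without 4 h replicate 1 or 2 (adjusted p up to 0.121).

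Regulators of organ polarity, growth and protein folding completed the lists. PHB (AT2G34710), an HD-ZIP III factor of vascular and niche patterning, was at 7.03, 6.72 and 6.58 at 4 h, against 6.26, 6.32 and 5.84 in mock (0.64 ± 0.14). KAN1, of the opposing KANADI family, rose by 0.60 ± 0.17, the other 7 genes of that list did not pass, and REV stood at -0.29. The rises were 22.2% of this list of 9 genes, beside 5.53% of all loci. Without 4 h replicate 1 PHB did not pass and KAN1 did, and without mock replicate 3 or 4 h replicate 2 neither did. None of 10 GRF and GIF growth regulators was called by limma, with a median of 0.03, and 3 had an unadjusted p under 0.05. One setting, the omission of 4 h replicate 3, gave 1 call in each direction. Of 20 heat shock and endoplasmic reticulum chaperone genes 0 rose and 2 fell (10.0%, beside 5.23% of all loci), calnexin CNX1 at -0.65 ± 0.14 and SHD at -0.36 ± 0.09, with the heat shock genes HSP70 at 0.45 and HSP101 at 0.50 not called. Both falls were lost without 4 h replicate 1, mock replicate 1, mock replicate 2 or 4 h replicate 2.

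**Figure D5:**
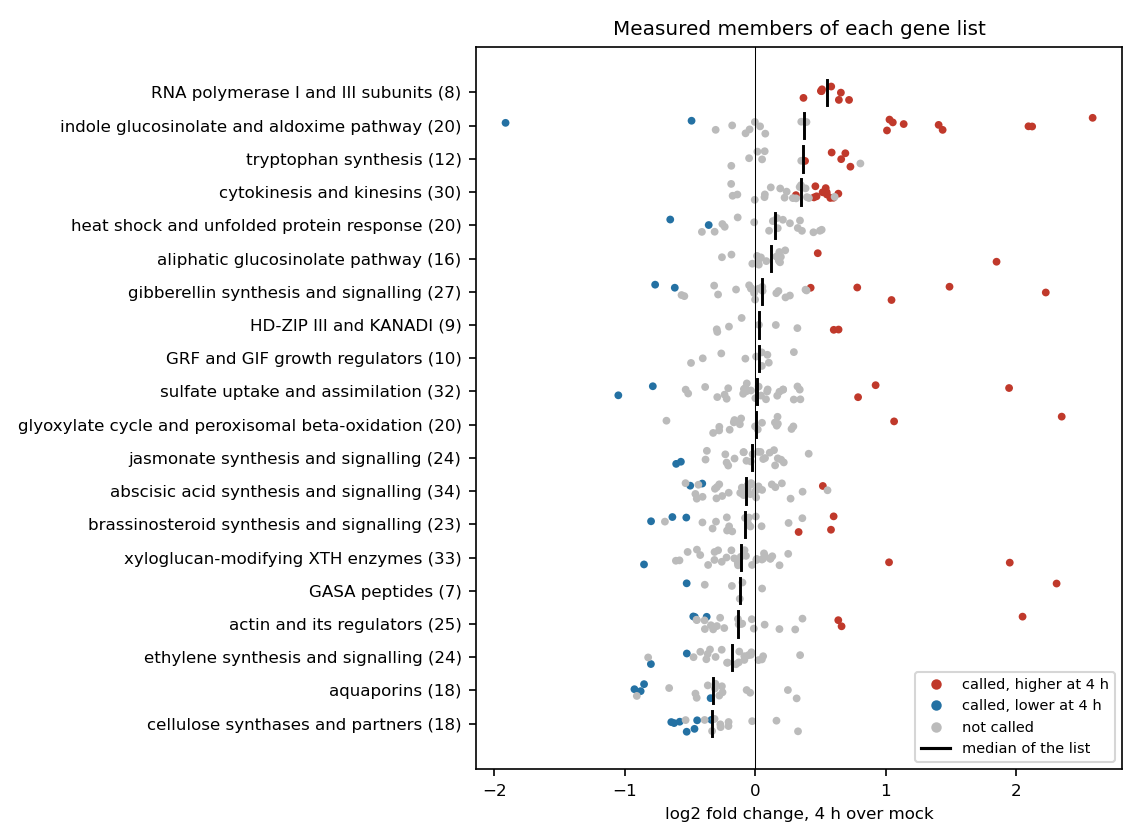
Log2 fold change, 4 h over mock (x axis), of every measured member of 20 gene lists (rows, with the number of genes), 1 point per gene, coloured where called, with a bar at the list median. Lists are ordered by median, from 0.55 for RNA polymerase I and III subunits to -0.33 for cellulose synthases and partners, and several lists with a median near 0 hold single strong rises.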

How the data were processed

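The authors deposited RMA-normalized log2 signals, 1 value per probe set and array, for 9 arrays. RMA and limma 3.24.15 are listed in the submitters' processing notes. Array type, probe set design and genome build are unstated there and in the labels, and so probes shared by close paralogs cannot be recognised. Of 21494 probe sets, 64 were controls. The other 21430 bore an Arabidopsis locus as their name, and 21231 matched the RefSeq gene table of TAIR10.1 used for symbols.

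The values were used as deposited. One limma 3.58.1 model in R 4.3.3 (lmFit, eBayes) with a mean per group was fitted to all 9 arrays, with 6 residual degrees of freedom, and 4 h minus mock was tested two-sided with Benjamini-Hochberg adjustment over all loci. Every adjusted p printed is from that limma fit. Errors after ± are its standard errors, and 3 arrays a group limit the precision (median standard error 0.108). If the replicates were not grown separately, p-values measure only the spread between these samples. The model was tested on simulated data. Gene lists are described by counts and medians, with no set test. The members and the 20 lists were chosen with earlier results of these data known. Some list symbols were later corrected or dropped where the gene table held several loci or none.

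The genes named are the 15 largest rises and falls among called loci whose 4 h and mock arrays did not overlap, up to 5 called members of each list with the smallest p, PLT1 and PLT2. Other list members and the marker genes are given to show the rest of a list and were chosen after their values were seen. PLT1 had a log2 fold change of 0.09 ± 0.09 and was not called (adjusted p = 0.560). Same-numbered 4 h and mock arrays deviated from their group means with correlations of 0.07, 0.09 and -0.11, so the numbers were not taken as pairs. A planned search of promoters for a motif was not run because no promoter sequence was at hand.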

Additional observations from a re-analysis of the deposited data

Results flagged for a closer look

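The change between 1 h and 4 h of dexamethasone passed the test (limma, Benjamini-Hochberg adjusted p under 0.05 over 21430 loci, 1.85% called) for 32 of the 90 genes named by rule. Since both times were set against the same mock arrays, this is the test of whether their effects differ. Apart from PLT1 and PLT2, the genes were named for their change at 4 h against mock, which uses the same 4 h arrays. That choice raises the share that passes, so 32 of 90 is not comparable with 1.85%. Values are log2 differences, 4 h minus 1 h. Among the largest rises they were 1.43 for AT3G48460, 1.19 for MLS, 1.17 for CYP79B3, 1.06 for AT4G28410, 0.93 for RGL3 and 0.89 for CYP79B2. Among the largest falls they were -1.88 for AT5G26220, -1.66 for AT1G78020, -1.60 for AT5G62330, -1.52 for BGLU28, -1.49 for GH3.3, -1.42 for AT5G06270, -1.38 for AT2G41810 and -1.37 for EXPA10. They were -1.28 for AT1G57590, -1.25 for MAN7, -1.08 for AT2G43890 and -1.03 for AT1G12845.

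Among members of the gene lists, the differences were 0.73 for the shikimate kinase gene SK2, 0.66 for AUR3, 0.62 for CYCB1;1, 0.54 for KNOLLE (SYP111) and 0.44 for PAKRP1. For RNA polymerase subunits they were 0.55 for RPAC42, 0.53 for NRPA1 and 0.47 for NRPA2. They were -0.90 for TIP1;1 and -0.74 for PIP1;1 among aquaporins, -0.62 for DWF4, -0.61 for AOC4, and -0.49 for both GASA4 and EIL1. Among the 15 largest rises, 13 had been called at 1 h against mock already, and among the 15 largest falls 1 had, GH3.3. Between 1 h and 4 h, 12 of the falls and 6 of the rises passed. As these genes were picked for large changes at 4 h, the counts do not describe loci in general.

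The poly-A control probe sets, which lie outside the comparison of genes, had a mean log2 level of 8.76 on 4 h replicate 1, above the 6.17 to 6.40 of the mock arrays. Single arrays were not tested as outliers within the groups of 3.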

How the results depend on the processing

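With all arrays 2305 loci were called (1185 higher, 1120 lower at 4 h). Fitting only the 4 h and mock arrays, 1067 were called (597 higher, 470 lower). That fit called 4 RNA polymerase rises (8 with all arrays), 5 mitosis and cytokinesis rises (11) and 2 cellulose falls (7). It called 1 brassinosteroid gene each way (3 with all arrays), 0 heat shock and chaperone falls (2) and 9 indole glucosinolate rises (9). With all arrays, 171 of the called loci (81 and 90) also changed at least 2-fold. Leaving out single arrays gave 688 to 4153 calls, 423 to 1912 higher and 265 to 2241 lower. The replicate block, array weights, trend and robust eBayes, a filter on dim probe sets, median-centred arrays and quantile normalization gave 2275 to 3100, each within 1.5 times of 2305. The block on the replicate number, which the data do not bear out as a pairing, gave 2340 calls, with 2031 of the 2305 among them. Of 88 named calls, 56 passed without each single array, 22 did not pass with only the 4 h and mock arrays, and 1 did not with the block. Quantile normalization ended 4, centring 2 and trend and robust eBayes 1. No named call changed its sign under any of these settings. Dim loci gave few calls, so changes of dim genes cannot be seen well.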

Other observations

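The following genes lie outside the rule for naming and were picked for small p-values after their values were seen. ARF19 (AT1G19220), an auxin response factor, had log2 levels of 4.83, 4.88 and 4.87 at 4 h, against 5.96, 6.06 and 6.18 in mock, a log2 fold change of -1.21 ± 0.08 (limma adjusted p = 5.37e-05). RCP1 (AT5G17520), known as the maltose exporter of the chloroplast envelope, was at 8.99, 8.97 and 8.99 at 4 h, against 7.31, 7.56 and 7.46 in mock, a rise of 1.54 ± 0.09. The calmodulin-like gene CML11 (AT3G22930) rose by 1.47 ± 0.10, the diacylglycerol kinase gene DGK7 (AT4G30340) by 1.11 ± 0.08, and the glucosyltransferase gene UGT85A1 (AT1G22400) by 1.17 ± 0.10. In each of these genes the arrays of the groups did not overlap, as was so for 27.7% of all loci.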
